A study of Mus musculus with 6 samples.

Results

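Immediate early genes are the genes that neurons switch on within minutes of being excited, and 47 of them, with further genes induced by neuronal activity, were followed in the amygdala of mice that lack IP3K-A, the neuronal kinase that phosphorylates inositol trisphosphate (IP3). The list was drawn up by gene symbol. A gene was measured when at least 1 probe set of the array was paired with its symbol alone, and the probe set with the highest mean over the 6 arrays stood for it. This gave 46 of the 47 genes, 23 transcription factors and 23 effectors, out of 22180 genes measured in all. Fosl1 is not analysed here, since its probe set is shared with Ccdc85b. Jund, Dusp6 and Rgs2 had a second probe set.

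RNA of 3 wild-type (WT) and 3 IP3K-A knockout (KO) pools was read on GeneChip Mouse Gene 2.0 ST arrays, 1 pool to an array. All animals were males on a C57BL/6N background aged 10 to 15 weeks, the WT mice being littermates of the KO mice, and none had a stated treatment or stimulus. The methods state that mice were housed singly before all experiments. They were killed between 2 and 4 in the afternoon, with lights on from 8 in the morning, so the values describe the amygdala at 1 time of day. The methods describe the samples as independently prepared pools of several mice, so n counts pools and not mice, and which exons the knockout removes is not given in the sources used here. Itpka, the gene of IP3K-A, checked the labels. Its log2 intensity averaged 8.90 in the WT pools (SD 0.06, n = 3) and 6.89 in the KO pools (SD 0.11, n = 3; adjusted p = 2.6e-04 from limma). Of 8 genes of all neurons, 4 were lower in KO and 4 higher, with a median log2 difference (KO minus WT) of −0.03. Array medians lay between 6.49 and 6.52, correlations between arrays between 0.988 and 0.993, and the number of arrays limits the precision. KO 1 stood apart in markers of the choroid plexus, such as Ttr at 13.00 against 9.18 to 10.42 in the other pools. The number of lower genes, the median difference and the differences of some genes are given below with and without KO 1. The lists of markers and related genes are given with all 6 pools only.

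When synapses and calcium channels of a neuron open, calcium and kinases such as CaMKIV and ERK activate transcription factors that are already in place, among them CREB and SRF. These switch on the first wave of genes without any new protein being needed. Part of that wave encodes transcription factors (the FOS and JUN proteins of the AP-1 complex, EGR, NPAS4 and NR4A proteins) that drive a second wave, and part encodes effectors that act at the synapse or restrain the signal. In the amygdala, Fos, Arc and Egr1 are widely used to mark cells active during fear and anxiety. IP3, the substrate of IP3K-A, is the messenger that releases calcium from internal stores.

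CREB binds the cAMP response element (CRE), and many genes of this group carry one close to their start. RefSeq promoter windows were at hand for 34 of the 46 genes (56 windows, GRCm38.p6), and the 250 bases before the start were searched on both strands. Arc, Egr1 and Egr3 were among the genes without a window, and sites farther upstream were not searched. The full CRE, TGACGTCA, was in 7.1% of these windows and in 1.5% of all 32851 windows of the table. Its shorter core, TGACG or the reverse CGTCA, counted also where it is part of a full site, was in 53.6% of these windows and 17.8% of all. By gene, the CRE core lay before 14 of 18 transcription factors and 9 of 16 effectors. The serum response element bound by SRF, known as the CArG box, was before 2 of the 34 genes, Egr2 and Dusp5 (5.9%, against 1.6% of all genes with a window). By window the shares were 8.9% and 1.5%, but overlapping windows of Egr2 count the same site more than once. An EGR site, GCGTGGGCG or the reverse CGCCCACGC, lay before 1 gene, Maff, and in 1.8% of windows against 0.5% of all. A TATA box, TATAAA on the gene's strand only, was in 10.7% and 7.6% of windows, and an AP-1 site, TGACTCA or the reverse TGAGTCA, in 1.8% and 4.5%. A match is a run of letters and not a shown binding site.

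Shown here are the last 150 bases before the start of 7 genes that differ in their values below: Fos, Junb, Egr2, Nr4a1 and Dusp1, which were lower in KO, Nr4a2, which was higher, and Plk2, with a log2 difference of 0.03. Capitals mark CRE cores, full CREs, the CArG box and the TATA box. The stretches lie at chr12:85473740-85473889 (plus strand, Fos), chr8:84978749-84978898 (minus, Junb), chr10:67537719-67537868 (plus, Egr2), chr15:101266696-101266845 (plus, Nr4a1), chr17:26508473-26508622 (minus, Dusp1), chr2:57124004-57124153 (minus, Nr4a2) and chr13:110394894-110395043 (plus, Plk2), all GRCm38.p6.
Fos: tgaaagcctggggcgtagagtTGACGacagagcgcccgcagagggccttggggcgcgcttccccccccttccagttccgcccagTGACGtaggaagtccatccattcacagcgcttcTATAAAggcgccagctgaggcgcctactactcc
Junb: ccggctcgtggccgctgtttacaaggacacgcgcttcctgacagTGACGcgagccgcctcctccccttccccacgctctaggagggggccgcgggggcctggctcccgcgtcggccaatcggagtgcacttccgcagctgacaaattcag
Egr2: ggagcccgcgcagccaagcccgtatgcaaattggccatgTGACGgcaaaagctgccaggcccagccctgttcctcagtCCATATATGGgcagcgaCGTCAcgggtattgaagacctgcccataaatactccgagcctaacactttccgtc
Nr4a1: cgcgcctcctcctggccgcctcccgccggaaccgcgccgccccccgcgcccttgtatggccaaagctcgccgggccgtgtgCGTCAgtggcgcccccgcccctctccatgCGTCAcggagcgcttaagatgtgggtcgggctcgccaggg
Dusp1: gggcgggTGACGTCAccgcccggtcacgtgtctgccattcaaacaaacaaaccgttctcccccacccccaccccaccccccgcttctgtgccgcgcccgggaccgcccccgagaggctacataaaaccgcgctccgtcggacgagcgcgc
Nr4a2: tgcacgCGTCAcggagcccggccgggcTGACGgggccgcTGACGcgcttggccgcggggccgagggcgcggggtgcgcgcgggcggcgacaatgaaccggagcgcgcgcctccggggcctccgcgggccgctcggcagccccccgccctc
Plk2: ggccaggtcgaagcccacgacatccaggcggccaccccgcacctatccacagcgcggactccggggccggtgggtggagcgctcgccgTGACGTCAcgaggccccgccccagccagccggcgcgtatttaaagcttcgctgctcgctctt
In Fos, the CRE core nearest the start begins 66 bases before it and the TATA box 33. Egr2 has its CArG box beginning 72 bases before the start, with a CRE core on either side. Dusp1 and Plk2 hold the full CRE, beginning 143 and 62 bases before the start. The CRE core lay before 19 of the 27 genes with a window that were lower in KO and 4 of the 7 that were not.

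In KO, most of the 46 genes lay slightly below WT, and none stood out from the spread of the pools after adjustment. The KO mean was the lower in 37 genes and the higher in 9, with a median log2 difference of −0.09 (KO minus WT, as throughout), while 50.1% of all 22180 genes were lower and their median difference was 0.00. The count of lower genes was 33 with the arrays centered on their medians, when 47.0% of all genes were lower. It was 40 with quantile normalization repeated, when 53.5% of all genes were. Of the 46 differences, 10 were within 0.015 of 0. Differences ran from −0.30 for Dusp1 to 0.22 for Nr4a2. None passed an adjusted p under 0.05 by limma (smallest 0.729) or by the methods' t-test, against 0.0085% of the 23521 probe sets tested by limma. At an unadjusted limma p under 0.05 there were 8, and 8 by the methods' t-test, which 6.38% of all genes reached.

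Those 8 by limma were 6 genes lower in KO (Fosl2, Egr4, Arc, Nptx2, Sik1 and Ier2; 13.0%, where 3.36% of all genes were) and 2 higher (Nr4a2 and Klf6; 4.35%, where 3.16% of all genes were). In 8 genes the highest KO pool was below the lowest WT pool (17.4%, against 6.16% of all genes), and in 3 the lowest KO pool was above the highest WT pool (6.52%, against 7.54%), a share near that of all genes. With 3 pools on each side, the smallest p of an exact permutation test is 0.1. The study's own cutoffs asked for more than a 1.2-fold difference with p under 0.1 before adjustment, and by limma 2 genes, Arc and Dusp1, passed them, both lower (4.35%, where 1.77% of all genes passed lower and 1.24% higher). By the methods' t-test 0 passed them, where 1.82% of all genes did. These counts rest on single pools: 1 gene, Egr4, passed the cutoffs without WT 1, and 0 passed without KO 1. Without any 1 of the other pools, 4 or 5 passed. The share of all genes that passed with a pool left out is not given here, so these counts have no background beside them.

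**Figure D1:**
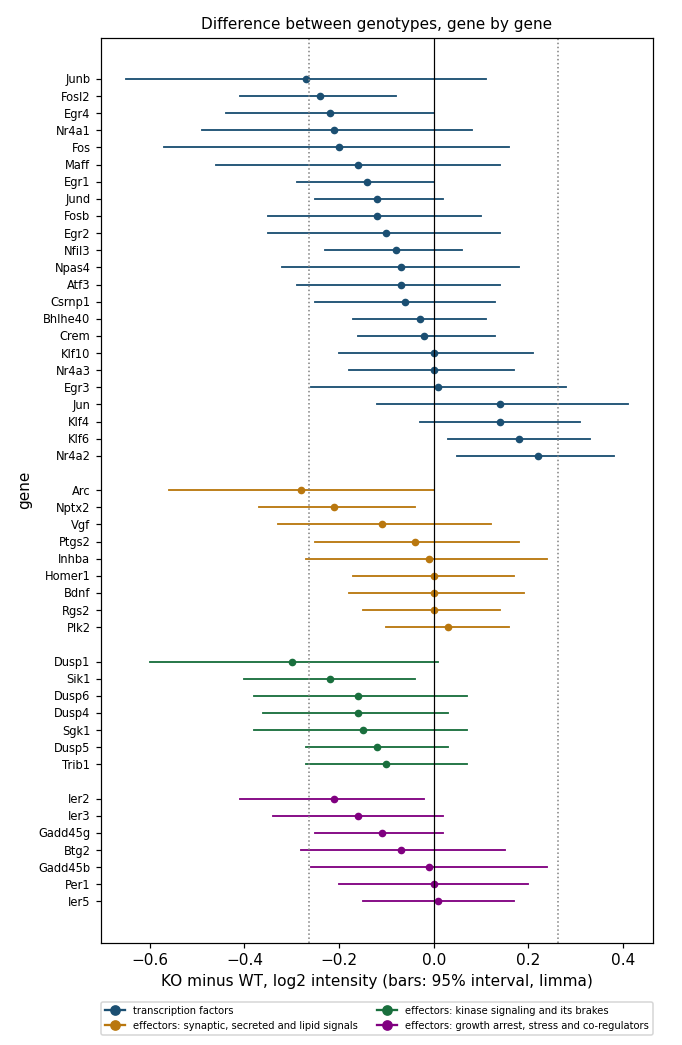
Difference in log2 intensity (KO minus WT, horizontal axis) of each of the 46 genes, colored by role; points are estimates and bars 95% intervals from limma (3 pools per group), and dotted lines mark a fold change of 1.2. The transcription factors run from −0.27 (Junb) to 0.22 (Nr4a2), and all 7 genes of kinase signaling lie left of 0 and among them only the interval of Sik1 stays below it.

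In KO, 17 of the 23 transcription factors were lower and 6 higher (median log2 difference −0.07). An unadjusted limma p under 0.05 was reached by 2 in each direction (8.7% each, against 3.36% of all genes lower and 3.16% higher). The AP-1 family, whose FOS and JUN proteins pair to bind DNA, was mostly lower. Fos had log2 intensities of 7.00, 6.44 and 6.60 in WT 1 to 3 and 6.35, 6.37 and 6.70 in KO 1 to 3. WT 1 stood above the rest, and KO 3 lay above the other WT pools. The log2 difference was −0.20 (SE 0.16, 95% interval −0.57 to 0.16, adjusted p = 0.812 from limma), and it was −0.05 without WT 1.

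Fosb, whose truncated product DeltaFosB accumulates under repeated stimulation, was at 7.36, 7.30 and 7.23 in WT and 6.96, 7.28 and 7.27 in KO. Only KO 1 was low, and without it the log2 difference went from −0.12 (SE 0.10) to −0.02. Junb, a partner that restrains JUN, followed the same pattern more widely, with 9.12, 8.83 and 8.75 in WT and 8.28, 8.79 and 8.82 in KO. Its range over the 6 pools, 0.84 on the log2 scale, was made by WT 1 at the top and KO 1 at the bottom. The log2 difference was −0.27 (SE 0.16, adjusted p = 0.768 from limma), and −0.09 without KO 1.

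Fosl2, which encodes the FOS relative FRA-2, also had WT 1 as its highest pool and KO 1 as its lowest, but it separated the groups. It was at 8.57, 8.47 and 8.43 in WT and 8.15, 8.30 and 8.29 in KO, and each KO pool lay under each WT pool. With a log2 difference of −0.24 (SE 0.07, 95% interval −0.41 to −0.08, adjusted p = 0.729 from limma), or 1.18-fold lower, it had the smallest unadjusted p of the 46 genes, and the difference was −0.16 without both WT 1 and KO 1. Jund, the least inducible of the JUN genes, also did not overlap (9.12, 9.12 and 9.15 in WT; 8.96 to 9.08 in KO; log2 difference −0.12, SE 0.06), but its second probe set had a difference of 0.00. Jun went the other way, with a log2 difference of 0.14 (SE 0.11) and overlapping groups.

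The 4 EGR genes, which encode zinc finger proteins, did not move alike. Egr1 was at 8.56, 8.53 and 8.63 in WT and 8.38, 8.43 and 8.49 in KO. The groups did not overlap, by a margin smaller than the spread within WT, and the log2 difference was −0.14 (SE 0.06, 95% interval −0.29 to 0.00, adjusted p = 0.738 from limma). Egr4 was at 7.41, 7.66 and 7.49 in WT and 7.19, 7.44 and 7.27 in KO. KO 2 overlapped with WT 1, and the log2 difference was −0.22 (SE 0.09, adjusted p = 0.738 from limma), −0.23 without both pools numbered 1.

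Egr2 was at 7.42, 7.18 and 7.15 in WT and 6.98, 7.29 and 7.17 in KO, a log2 difference of −0.10 (SE 0.11) that was −0.02 without either WT 1 or KO 1. Egr3, which sustains the response after EGR1, was at 8.99, 9.28 and 9.25 in WT and 8.98, 9.33 and 9.23 in KO. Here the pools numbered 1 were both low, and the log2 difference was 0.01 (SE 0.11, 95% interval −0.26 to 0.28). Npas4, the member induced by calcium entry almost only in neurons, was at 7.70, 7.32 and 7.44 in WT and 7.37, 7.36 and 7.54 in KO. WT 1 was again the highest and the other 5 pools overlapped, with a log2 difference of −0.07 (SE 0.11, adjusted p = 0.908 from limma).

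The 3 NR4A genes, which encode orphan nuclear receptors, split. Nr4a1 was at 10.04, 9.74 and 9.87 in WT and 9.45, 9.69 and 9.89 in KO. KO 3 lay between the WT pools, so the log2 difference of −0.21 (SE 0.12, adjusted p = 0.768 from limma) came with overlap, and it was −0.02 without both pools numbered 1. Nr4a2, also a factor of dopamine neurons, was at 9.31, 9.46 and 9.36 in WT and 9.51, 9.66 and 9.62 in KO. All KO pools were above all WT pools, by a log2 difference of 0.22 (SE 0.07, 95% interval 0.05 to 0.38, adjusted p = 0.729 from limma) that was 0.18 to 0.26 when any 1 pool was left out. Nr4a3 had a log2 difference of 0.00 (SE 0.07).

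The 3 Krüppel-like factors were not lower either. Klf6 was at 9.98, 10.04 and 10.15 in WT and 10.25, 10.26 and 10.21 in KO, without overlap, a log2 difference of 0.18 (SE 0.06, adjusted p = 0.729 from limma). Klf4, an endothelial factor as well as an immediate early gene, did not overlap either and had a log2 difference of 0.14 (SE 0.07). Klf10 had 0.00 (SE 0.09). The other factors differed by −0.16 (Maff, SE 0.13) to −0.02 (Crem, a CREB relative, SE 0.06) on the log2 scale, all with overlapping groups; they include Atf3, Csrnp1, Nfil3 and Bhlhe40.

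In KO, 20 of the 23 effectors were lower and 3 higher (median log2 difference −0.10). An unadjusted limma p under 0.05 was reached by 4, all lower (17.4%, against 3.36% of all genes). Among the 9 that act at synapses, are secreted or make lipid signals, 7 were lower, but the median log2 difference was only −0.015. Arc, whose product takes AMPA receptors from the synaptic surface, was at 9.53, 9.17 and 9.35 in WT and ran from 8.93 in KO 1 to 9.27 in KO 3, with KO 2 near the low end. KO 3 lay above WT 2, so the groups overlapped. The log2 difference was −0.28 (SE 0.12, 95% interval −0.56 to 0.00, adjusted p = 0.738 from limma), or 1.22-fold lower, and without both pools numbered 1 it was −0.12.

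Nptx2, a secreted pentraxin that gathers AMPA receptors, was at 8.98, 9.09 and 9.01 in WT and 8.73, 8.92 and 8.81 in KO. Its groups did not overlap. The log2 difference was −0.21 (SE 0.07, 95% interval −0.37 to −0.04, adjusted p = 0.729 from limma), and −0.16 to −0.26 with any 1 pool left out.

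Homer1, a postsynaptic scaffold gene with a short form induced by activity, was at 8.70, 8.50 and 8.50 in WT and 8.60, 8.52 and 8.57 in KO. Its 1 probe set does not tell the forms apart here, and the log2 difference was 0.00 (SE 0.07, 95% interval −0.17 to 0.17). Bdnf, the neurotrophin gene, was at 6.59, 6.80 and 6.69 in WT and 6.80, 6.62 and 6.68 in KO, with a log2 difference of 0.00 (SE 0.08, 95% interval −0.18 to 0.19). Both genes crossed 0 under some settings. Inhba, which encodes a subunit of activin, was highest in WT 1 (6.45, 6.08 and 6.10 in WT; 6.11, 6.16 and 6.31 in KO), as was Ptgs2, the inducible cyclooxygenase gene (7.78, 7.47 and 7.48 in WT; 7.53, 7.59 and 7.52 in KO).

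Vgf, a gene of secreted neuropeptides, was low in KO 1 alone (9.60, against 9.92 and 9.94 in the other KO pools), and its log2 difference of −0.11 (SE 0.10) was 0.00 without that pool. Plk2, a kinase that weakens synapses, and Rgs2, a brake on G protein signaling linked to anxiety in mice, had the narrowest ranges among these 9 genes, 0.08 and 0.12 on the log2 scale over the 6 pools. Their log2 differences were 0.03 (95% interval −0.10 to 0.16) and 0.00 (95% interval −0.15 to 0.14), and a second probe set of Rgs2 had 0.13.

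All 7 genes of kinase signaling were lower in KO, with a median log2 difference of −0.16. Among them 1, Sik1, had an unadjusted limma p under 0.05 (14.3%, against 3.36% of all genes lower). Dusp1, a phosphatase that switches off MAP kinases, was at 8.77, 8.21 and 8.47 in WT and 8.19, 8.20 and 8.18 in KO. The KO pools lay within 0.01 (SD, n = 3) of each other on the log2 scale and just under WT 2, while the WT pools spread over 0.28 (SD, n = 3). The log2 difference was −0.30 (SE 0.13, 95% interval −0.60 to 0.01, adjusted p = 0.738 from limma), and −0.15 without WT 1.

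Sik1, a kinase that is induced by CREB and holds back its coactivators, was at 8.69, 8.75 and 8.53 in WT and 8.40, 8.41 and 8.51 in KO. Groups were separate, but the highest KO pool (8.51) lay just under the lowest WT pool (8.53). The log2 difference was −0.22 (SE 0.08, 95% interval −0.40 to −0.04, adjusted p = 0.729 from limma), and −0.18 without both pools numbered 1. The ERK phosphatase genes Dusp6 (8.78, 8.41 and 8.53 in WT; 8.40, 8.41 and 8.45 in KO), Dusp4 and Dusp5 had log2 differences of −0.16 (SE 0.10), −0.16 (SE 0.08) and −0.12 (SE 0.06). The WT 1 value of Dusp6 stood apart, and without it the difference was −0.05. A second probe set of Dusp6 had −0.10. Sgk1, a kinase gene that glucocorticoids also induce, had −0.15 (SE 0.10) and Trib1, a pseudokinase gene, −0.10 (SE 0.07).

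Among the 7 genes of growth arrest, stress and co-regulation, 6 were lower, with a median log2 difference of −0.07. Ier2, a nuclear protein gene, was at 5.46, 5.65 and 5.44 in WT and 5.19, 5.37 and 5.34 in KO. It was dim, with a mean over the pools of 5.41, below the lowest array median of 6.49. The groups were apart, with a log2 difference of −0.21 (SE 0.08, 95% interval −0.41 to −0.02, adjusted p = 0.738 from limma). Gadd45g, of a family active in DNA repair and demethylation, was apart too, by −0.11 (SE 0.06). Its relative Gadd45b had −0.01 (SE 0.11). Ier3 had −0.16 (SE 0.08), Btg2, which halts cell division, −0.07 (SE 0.09), and Ier5 0.01 (SE 0.07). Per1, a gene of the circadian clock that light and activity also induce, was at 9.94, 9.91 and 9.96 in WT and 9.75, 9.98 and 10.06 in KO, a log2 difference of 0.00 (95% interval −0.20 to 0.20).

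**Figure D2:**
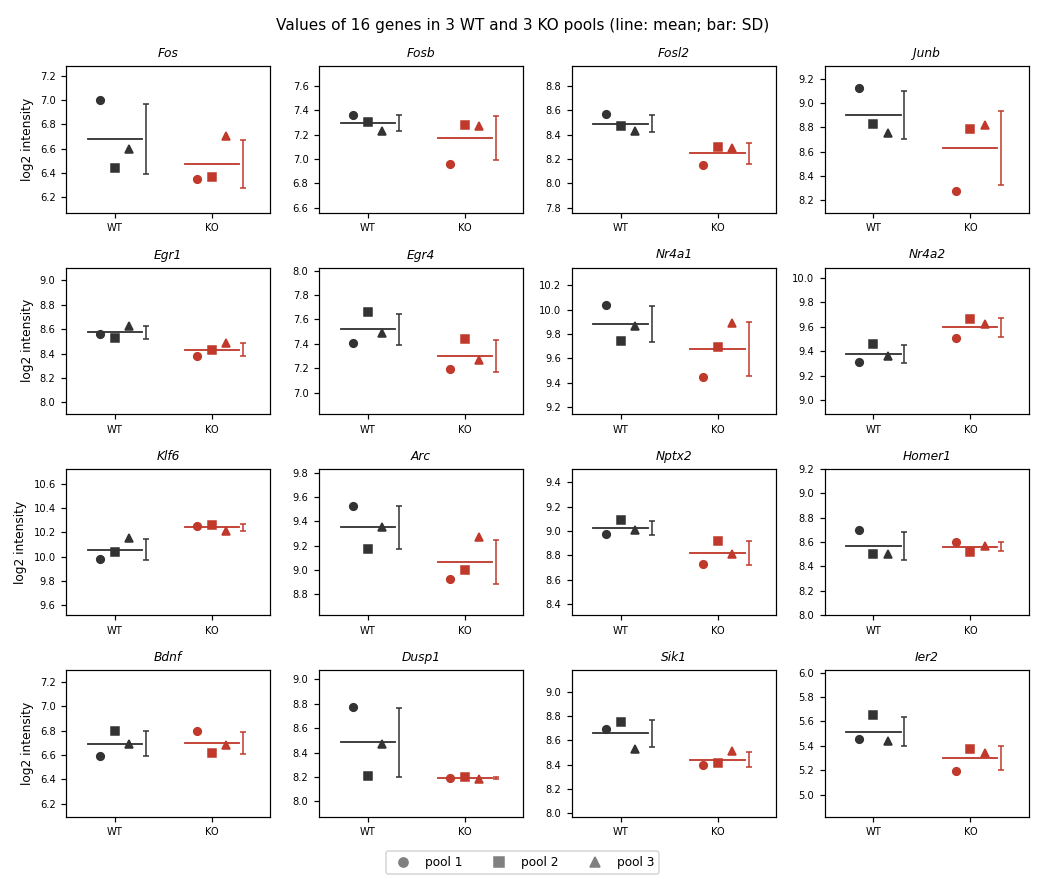
Log2 intensity (vertical axis, each panel spanning the same 1.2 log2 units) of 16 genes in the 3 WT and 3 KO pools; marker shapes give the pool number, lines the group mean and bars the SD. Fosl2, Egr1, Nptx2, Dusp1, Sik1 and Ier2 have no KO pool at or above a WT pool, and Nr4a2 and Klf6 the reverse. In Fos, Fosb, Fosl2, Junb, Nr4a1 and Arc pool 1 is the highest in WT and the lowest in KO.

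Pool by pool, the group was highest in WT 1 and lowest in KO 1, and the other 4 pools lay between. Set against each gene's own mean of 6 pools, the median over the 46 genes was 0.08 in WT 1, −0.02 in WT 2, 0.02 in WT 3, −0.10 in KO 1, −0.03 in KO 2 and −0.01 in KO 3 on the log2 scale, while over all genes it was within 0.01 of 0 in every pool. WT 1 held the highest value of 23 of the 46 genes (50.0%, against 15.9% of all genes) and lay above the gene's mean in 37. KO 1 held the lowest value of 24 (52.2%, against 19.2% of all genes) and lay below the mean in 33. The transcription factors and the effectors shared this: WT 1 was the highest in 11 and 12 of them, and KO 1 the lowest in 13 and 11.

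These pools were singled out after their values were seen, as the highest and the lowest of the group, so leaving them out moves the difference toward 0 by construction. Without WT 1, 31 of the 46 genes were lower in KO, without KO 1, 35, and without both 26, when 50.9% of all genes were. The count also fell without WT 3 or KO 2, to 34 and 32, and was 38 without either WT 2 or KO 3. Of all genes, 47.8% to 50.6% were lower without 1 of these 4 pools. The median log2 difference was −0.07 without WT 1, −0.06 without KO 1 and −0.02 without both. Without both, 13 genes turned from below 0 to above it and 2 the other way. Among the transcription factors Fos, Fosb, Junb, Egr2, Npas4 and Crem turned to 0.02, 0.01, 0.01, 0.07, 0.06 and 0.01, and Klf10 to −0.04. Fosl2, Egr1, Egr4, Nptx2, Sik1 and Ier2 had differences of −0.12 to −0.23 without both pools, Nr4a2 0.23 and Klf6 0.14.

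**Figure D3:**
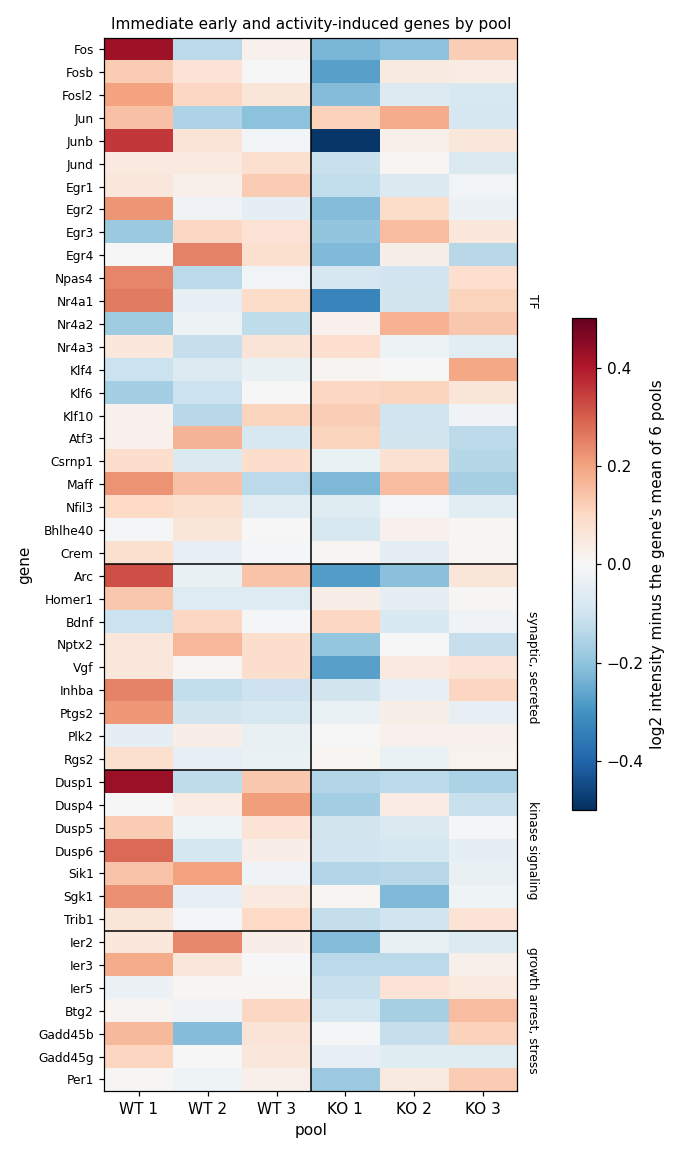
Log2 intensity of each of the 46 genes (rows, grouped by role; TF, transcription factors) in each pool (columns) minus the gene's mean of the 6 pools; red is above and blue below that mean. The WT 1 column is above the mean in 37 genes and the KO 1 column below it in 33, while Nr4a2, Klf4 and Klf6 are blue in WT 1.

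The spread between pools was somewhat wider than that of other genes. The median SD over the 46 genes was 0.103 in WT and 0.098 in KO on the log2 scale, against 0.085 and 0.077 over the 16519 genes whose mean lay within the same range of intensity. Fos and Dusp1 had the largest SD in WT, 0.28 each. In Fos this came from a high WT 1, while Dusp1 spread to both sides of its WT mean (8.77, 8.21 and 8.47). Junb and Nr4a1 had the largest in KO, 0.30 and 0.22. In Junb this came from a low KO 1, while Nr4a1 spread to both sides of its KO mean (9.45, 9.69 and 9.89).

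Related genes were split in direction. Of 27 measured genes that lead to immediate early transcription (CREB and its coactivators, SRF and its partners, MEF2 factors, kinases and calcium entry channels), 15 were lower and 12 higher, with a median log2 difference of −0.01. In this list 1 had an unadjusted limma p under 0.05 (3.7%, near the 3.16% of all genes that were higher with such a p). It was Mef2a, a factor activated by calcineurin, which was higher by 0.15 (SE 0.05, adjusted p = 0.729 from limma). Of 25 further genes induced by activity or growth factors, 10 were lower and 15 higher, with a median of 0.02. The 1 with such a p (4.0%, near the 3.36% of all genes that were lower with one) was Spry4, an inhibitor of the ERK pathway. It was at 7.93, 7.99 and 8.05 in WT and 7.52, 7.84 and 7.82 in KO (log2 difference −0.26, SE 0.10). WT 1 was the highest pool in 3 of the 27 and 3 of the 25 genes, and KO 1 the lowest in 9 and 7.

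Of 12 genes that glucocorticoids induce, 8 were lower and 4 higher, WT 1 was the highest in 5, and KO 1 the lowest in 6. Lcn2, which inflammation also induces, was at 7.44 in WT 1 and between 5.88 and 6.46 in the other 5 pools. Fkbp5, Tsc22d3 and the other genes of this list had no unadjusted limma p under 0.05, and neither had Lcn2.

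Markers of neighboring tissue also moved between pools. In bulk tissue, fewer cells of a type and less RNA per cell cannot be told apart. All 6 choroid plexus markers were highest in KO 1. The log2 of their summed intensity, which is set mostly by Ttr, the transthyretin gene that defines this epithelium, was 13.27 in KO 1, 10.18 to 10.46 in WT and 10.35 and 10.98 in the other KO pools. Set against each gene's own mean, which weights the markers equally, their median was 0.83 in KO 1 and −0.33 to 0.00 in the other 5 pools.

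Of 11 markers of striatal projection neurons, cells that express many immediate early genes, 11 were lower in KO. Their median deviation from the gene's mean was 0.23, 0.31 and −0.10 in WT and −0.22, −0.25 and 0.10 in KO, so that WT 3 lay below KO 3. The log2 of their summed intensity, led by Penk, was 13.47 to 13.87 in WT and 13.36 to 13.75 in KO. Below 0.05 in unadjusted p by limma were Gpr6 and Gng7 (log2 differences −0.41 and −0.36). They made up 18.2% of these striatal markers, while 3.36% of all genes were lower with such a p.

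All 7 oligodendrocyte markers were lower in KO (log2 of the summed intensity 12.20 to 12.26 in WT and 11.91 to 12.21 in KO), with such a p for Mobp and Olig2 (−0.30 and −0.20). Of 8 GABAergic markers 7 were lower (13.32 to 13.36 and 13.18 to 13.28), with such a p for Npy and Pvalb (−0.25 and −0.20), and KO 1 was the lowest pool in 4. Excitatory neuron markers were lower in 4 of 7 (13.36 to 13.45 and 13.32 to 13.49), and markers of all neurons in 4 of 8 (14.88 to 14.90 and 14.89 to 14.93). Of 8 endothelial and mural markers 5 were lower, and the 3 that were higher, Rgs5, Tek and Cdh5 (log2 differences 0.19, 0.17 and 0.16), each had such a p. Those with such a p made up 28.6% of the oligodendrocyte, 25.0% of the GABAergic and 37.5% of the endothelial and mural markers. Of all genes, 3.36% were lower and 3.16% higher with one. None of these markers passed an adjusted p under 0.05 by limma. The part of these markers in the values of the 46 genes was not tested.

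**Figure D4:**
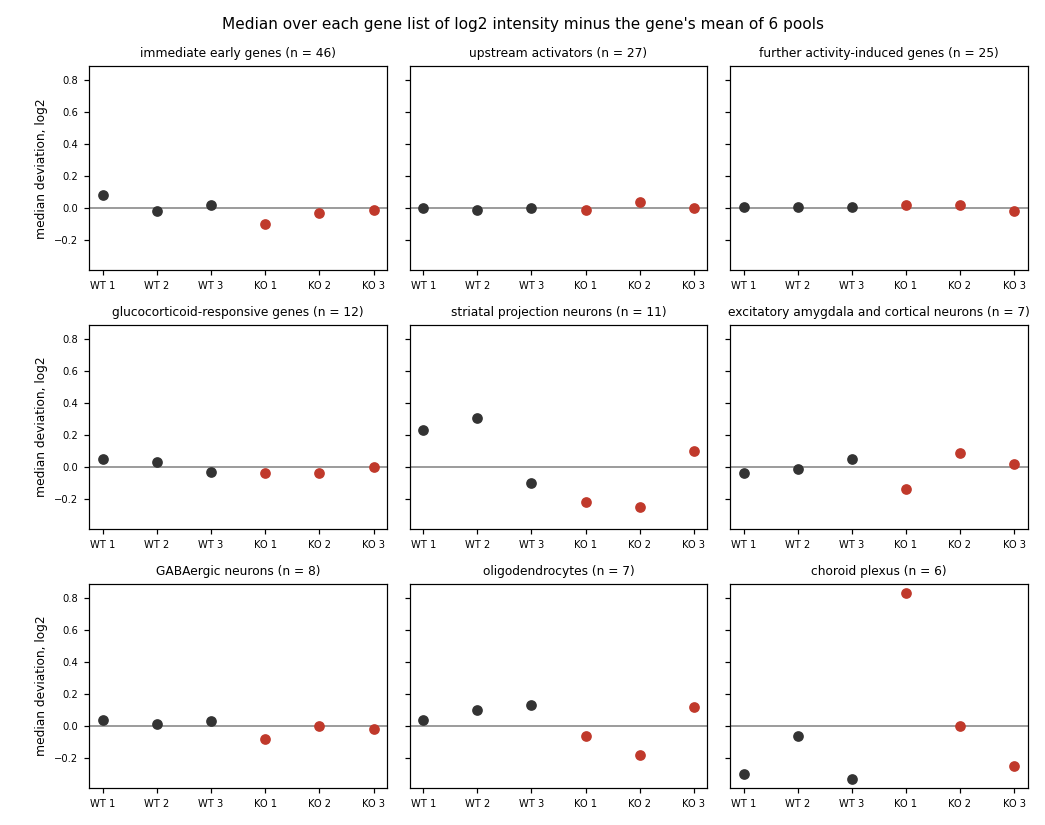
Median over each gene list (vertical axis, log2 intensity minus the gene's mean of the 6 pools) in each pool; black points are WT, red points KO, and n is the number of genes. The immediate early genes run from 0.08 in WT 1 to −0.10 in KO 1, the upstream and further activity-induced genes stay within 0.04 of 0, the striatal markers are high in WT 1, WT 2 and KO 3, and the choroid plexus markers reach 0.83 in KO 1.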

How the data were processed

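Total RNA of dissected amygdala was hybridized to GeneChip Mouse Gene 2.0 ST arrays (6 arrays). The deposited values are log2 intensities that the authors normalized with RMA, with GCOS also named in the submitters' processing notes. The table held 41345 probe sets, of which 23521 were paired with 1 gene symbol by the platform annotation, 1820 with several and 16004 with none listed. Genotypes came from the labels. KO was compared with WT on the deposited values with limma 3.58.1 (R 4.3.3; lmFit and eBayes, no covariate), and Benjamini-Hochberg adjustment ran over the 23521 probe sets. The script was tested on simulated data. The methods' t-test and cutoffs, other normalizations, filters and designs, array weights and leaving out pools were alternatives. Full statistics are given for genes picked by role and for those with a small p or no overlap. The genes and lists were chosen with earlier results of these data known. Levels were not compared between genes.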

Additional observations from a re-analysis of the deposited data

How the results depend on the processing

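No gene reached an adjusted p under 0.05 by limma or the methods' t-test in any of 16 alternatives, 15 of them with all 46 genes and the one limited to probe sets above the median level with 37, where the main limma result had 8 at an unadjusted p under 0.05; the smallest adjusted p was 0.481 over the 21 genes followed singly, of which 16 were in the limited one. The number past the study's cutoffs, 2, was 0 by the methods' t-test, 0 to 5 when 1 pool was left out, and 0 without both pools numbered 1, an alternative chosen after seeing the data. For the fits with pools left out, the share of all genes past the cutoffs is not given here. Genes without overlap, 11, were 14 to 19 when 1 pool was left out (10.2% to 12.0% of all genes then lay apart below and 11.23% to 13.67% above) and 20 without both pools numbered 1; fewer pools make separation easier by construction, and 17.98% and 18.61% of all genes then lay apart below and above. The median log2 difference, −0.09, was −0.123 to −0.058 when 1 pool was left out and −0.018 without both. Without both pools numbered 1, the log2 difference turned sign in 15 of the 46 genes, 7 of them not followed singly; the other 8 were Bdnf (−0.096), Egr2 (0.066), Fos (0.017), Fosb (0.011), Homer1 (0.047), Inhba (0.144), Junb (0.015) and Npas4 (0.065). It also turned in Egr3 with quantile normalization repeated (−0.011), in Homer1 with arrays centered (0.007) and in Inhba with array weights (0.003). With 1 pool left out it ran from −0.048 to 0.059 in Bdnf, −0.08 to 0.111 in Egr3, −0.035 to 0.065 in Homer1, −0.08 to 0.103 in Inhba and −0.151 to 0.041 in Npas4. The cause was not tested. Pools of the same number did not deviate together (correlations of deviations −0.03, 0.09 and −0.01), and the fit with the replicate block gave 37 lower genes, 2 past the cutoffs and a median of −0.092.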
